A study of Mus musculus with 36 samples.

Results

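The genes described here encode the 3 large families of conjugating enzymes of liver. These are the UDP-glucuronosyltransferases (Ugt genes), the glutathione S-transferases (Gst genes of the alpha, kappa, mu, pi and theta classes) and the sulfotransferases (Sult genes). Members were chosen by gene name alone, as every non-control probe of the array named Ugt1a, Ugt2a, Ugt2b or Ugt3a, Gsta, Gstk, Gstm, Gstp or Gstt, or Sult1 to Sult5. This gave 69 probes of 49 genes among the 56605 probes and 37074 gene names of the array, and each gene was followed through its probe with the highest mean over 36 arrays. Liver RNA came from male C57Bl/6J mice in 6 groups of 6, with 1 one-colour Agilent array for each mouse. CTRL mice were the controls, and AAKO mice lacked ATGL, the adipose triglyceride lipase encoded by Pnpla2, in white adipose tissue. Each genotype was studied fed ad libitum, after a 24 h fast, or fed and given a single gavage of 3 mg/kg CL316243, a beta 3 adrenergic receptor agonist, in 0.5% carboxymethyl cellulose at ZT10. All mice were killed at ZT16, on a cycle in which ZT0 is lights on. How the gene was deleted, and with which Cre driver, is not given in the sources used here, nor are the ages of the mice. The CTRL fed and AAKO fed groups belong to experiment 2 of the labels and the other 4 groups to experiment 1, so that for any comparison with fed mice the condition and the experiment cannot be told apart. Gavage is given for the CL316243 groups only, so agonist and gavage cannot be told apart either.

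Conjugation makes drugs, hormones, bile acids and reactive metabolites water-soluble so that they can leave in bile or urine. UGT enzymes of the endoplasmic reticulum transfer a sugar, usually glucuronic acid from UDP-glucuronate, while GST enzymes join glutathione to electrophiles and SULT enzymes transfer sulfate from the donor PAPS. Hepatocytes hold most of this capacity, and many of the genes are known targets of the receptors CAR, PXR and AhR and of the transcription factor NRF2, encoded by Nfe2l2.

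The levels reported are hybridisation signals of single probes, so the sequences behind the main results are shown first. The probes have 60 bases; for some, only the first 30 are printed. The genes are the estrogen sulfotransferase Sult1e1, its neighbour Sult1d1 (a second probe that moved with the one followed), the theta class transferase Gstt3, the alpha class transferase Gsta3, the pi class transferase Gstp1 and the hydroxysteroid sulfotransferase Sult2a7.
Sult1e1, first 30 bases: aatggagctctgagccacttccttgtgtct
Sult1d1, second probe: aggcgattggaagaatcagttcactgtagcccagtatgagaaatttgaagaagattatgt
Gstt3, first 30 bases: gttgcttggtatgtcctgactttccaaatt
Gsta3, first 30 bases: tgacgaggaacggccggatgctctctagtt
Gstp1, whole probe: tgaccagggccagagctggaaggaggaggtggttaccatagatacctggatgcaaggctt
Sult2a7, whole probe: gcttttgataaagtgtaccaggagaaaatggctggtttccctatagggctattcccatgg
On mm9, the build of the probe positions in the files, the Sult1e1 probe lies at chr5:88005187-88005246 on the minus strand, the Gstt3 probe at chr10:75236966-75237025 on the minus strand, the followed Gsta3 probe at chr1:21255189-21255248 on the plus strand, the Gstp1 probe at chr19:4037306-4037365 on the minus strand and the Sult2a7 probe at chr7:15050514-15050573 on the minus strand. Exon and UTR annotation of the probes is not given in the files.

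These families arose by gene duplication, and some probes cannot separate the copies. Among the followed probes, 11 carry accessions of more than 1 gene, and 6 of these were tested: Gstp1 (with Gstp2), Ugt1a10 (with Ugt1a9), Ugt1a6a and Ugt1a6b (each with several other Ugt1a genes), Ugt2a1 (with Ugt2a2) and Ugt2b36 (with Ugt2b37). Another 5 pairs of followed probes overlap in sequence by at least 25 bases at 80% identity or more. For Ugt2b37 and Ugt2b5, 46 of 55 aligned bases were identical, and a 30-base stretch of each shows the 6 bases there that differ, in capitals.
Ugt2b37: AatttatgaGccaccttctaaacactGATT
Ugt2b5: TatttatgaAccaccttctaaacactTGAC
The level of such a gene may include signal of its near copy.

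Signal was well above background for 33126 to 37200 probes of an array, and arrays of 1 group correlated at r between 0.978 and 0.995. One library stood apart: CTRL fasted replicate 2 lay at 80.9 on the first principal component, which held 41.8% of the variance, against 16.7 to 28.7 for the other CTRL fasted arrays and 102 to 110 for AAKO fasted. Summed hepatocyte markers lay between 2840 and 3540 on a linear scale, where 1 is the 75th percentile of the array. The ranges of the sum overlapped between all 6 groups. Single markers differed, however: in AAKO fasted, 2 of the 6 were called higher and 3 lower than in CTRL fasted. The same counts were found against AAKO fed. Over all genes, 21.3% were called higher and 28.1% lower in AAKO fasted than in CTRL fasted. The marker counts of that comparison, here and below, are to be read against these shares. Against AAKO fed, the shares were 27.8% and 35.7%. Summed neutrophil markers reached 54.2 in CTRL fasted replicate 2 against 0.949 to 8.04 in the rest of its group. They ran from 1 to 31.2 in AAKO fed. In AAKO fasted they ran from 6.33 to 83.9, and 3 of the 5 markers were called higher than in CTRL fasted. Intestine markers summed to 5.41 to 12.5 in AAKO fasted and 40.1 to 80 in CTRL fasted. Of the 4 listed, Vil1 and Lct were not above background on any fasted array, and 1 of the 2 tested was called lower. Stellate cell and fibroblast markers summed to 74.8 to 102 in AAKO fasted and 58.8 to 72.7 in CTRL fasted. Of these 6, 2 were called higher in AAKO and none lower, with a median difference of -0.13. Periportal hepatocyte markers summed to 829 to 886 in AAKO fasted and 638 to 794 in CTRL fasted, with 2 of 6 called higher and 1 lower, while pericentral sums overlapped and 3 of 7 were called lower. Exocrine pancreas markers summed to 6.8 to 13 in fasted and 20.2 to 30.1 in fed mice of both genotypes. Of the 4 measured, Pnlip was not above background on any of these arrays, nor Prss2 and Cpa1 on any fed array. Only 1 of the 4 was tested, and it was called lower in fasted mice (-1.25 in CTRL and -1.24 in AAKO). Of 6 Kupffer cell markers, 4 in CTRL and 5 in AAKO were called lower in CL316243 than fed mice, and none higher. Over all genes, 12.9% and 15.6% were lower in these comparisons. Fasted mice had 2 and 3 of the markers lower than fed mice, beside 22.4% and 35.7% of all genes. None was called between fasted and CL316243 mice of either genotype, which share an experiment. There, 36.8% of all genes were called in CTRL and 59.9% in AAKO. The part of these markers in the results below was not tested, and in bulk tissue fewer cells of a type and less RNA per cell cannot be told apart.

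Of the 49 genes, 40 were well above background on at least 5 of 6 arrays of some group and were tested, among 24101 genes of the array. The 9 left out were Sult2a1 to Sult2a6, of a group known for female-biased expression in mouse liver, and Sult2b1, Sult3a1 and Gstt4. Sult2a3, Sult2a4, Sult2a5 and Gstt4 were not above background on any of the 36 arrays, Sult2a1 and Sult2a2 were above it on 1 CTRL fasted array each, and Sult3a1 on 2 CTRL fasted arrays and no other. The genes tested were thus 7 of 7 mu, 3 of 3 alpha, 2 of 2 pi, 3 of 4 theta and 1 of 1 kappa GSTs, 9 of 9 UGT2, 3 of 3 UGT1A and 2 of 2 UGT3A genes, and 6 of 6 SULT1 but 2 of 9 SULT2 genes.

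Fed AAKO and CTRL livers were not distinguished by any of these genes. The limma fit called 0 of the 40 at an adjusted p under 0.05, and 4 of them had an unadjusted p under 0.05. Over all genes it called 0.0788%, with 0.0415% higher and 0.0373% lower in AAKO and 1638 at the unadjusted threshold. Differences of the members ran from -0.34 (Gsta2) to 0.56 (Ugt1a10) on the log2 scale, with a median of -0.05. The genotype differences described below are thus of fasted and of CL316243 mice.

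Most conjugation genes were lower in fasted than in fed livers of both genotypes. In CTRL, 25 of 40 were called, 24 of them lower and 1 higher (Sult1a1), beside 43.3% of all genes called, 22.4% lower and 20.9% higher. In AAKO, 35 were called, 30 lower and 5 higher, beside 63.5% of all genes, 35.7% lower and 27.8% higher. The median member change was -0.41 in CTRL and -0.77 in AAKO, where all genes had medians of -0.03 and -0.09. Falls past 1 on the log2 scale were called for 4 members in CTRL and 14 in AAKO. Both comparisons also compare experiments. The difference between the 2 responses was tested as an interaction, in which an experiment effect common to both genotypes cancels. It called 17 members, 13 with a lower and 4 with a higher response in AAKO, beside 33.9% of all genes, 19.4% lower and 14.5% higher.

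**Figure D1:**
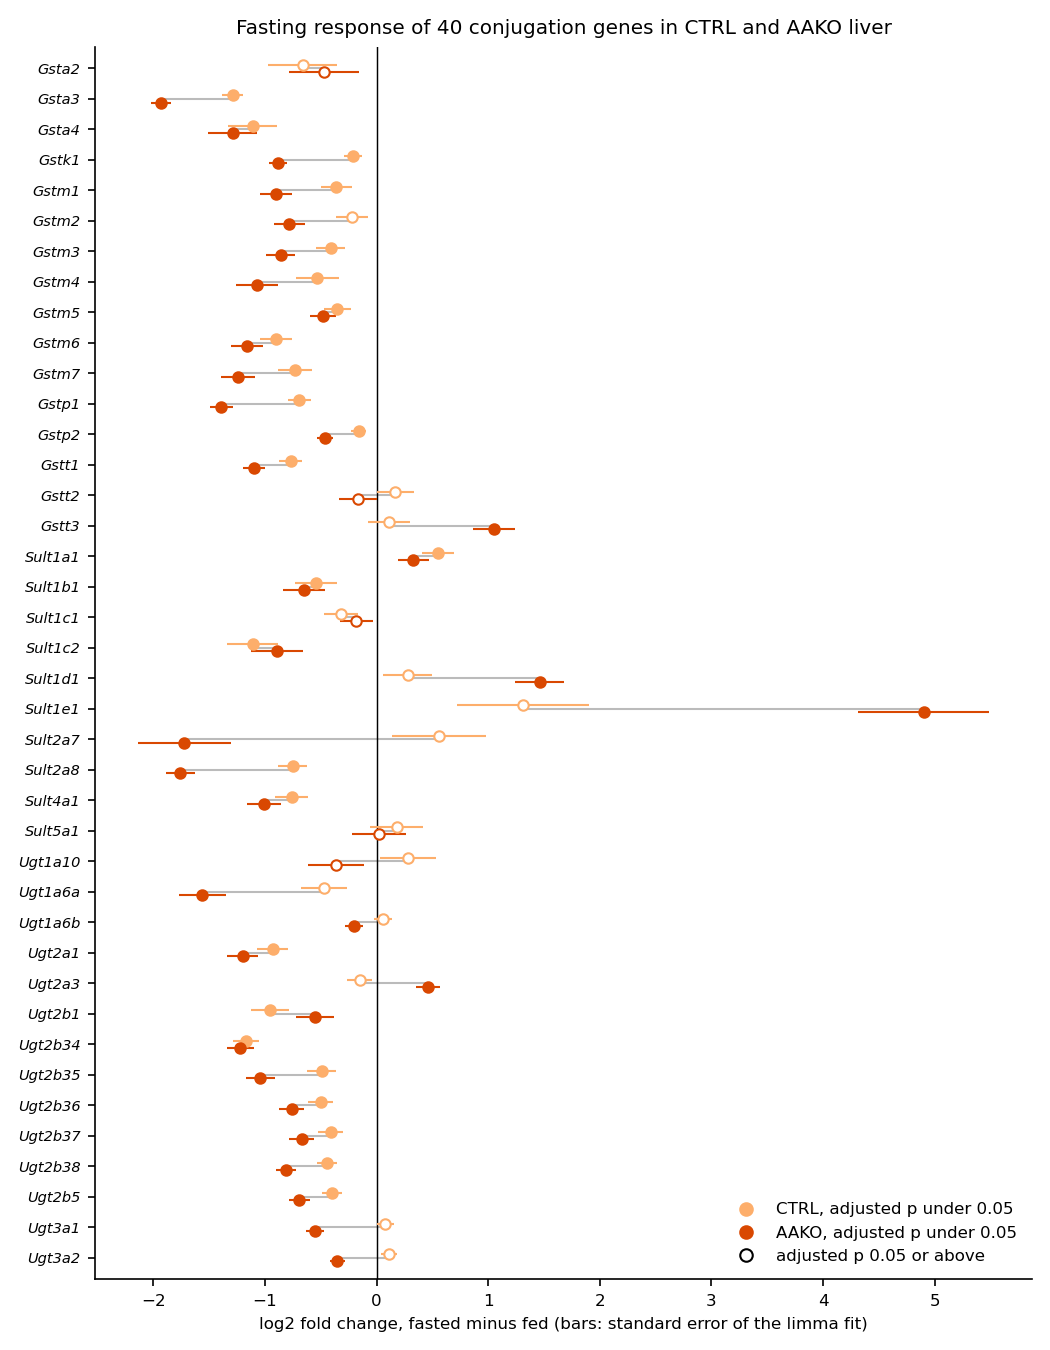
Log2 fold change of fasted against fed mice for the 40 tested genes in CTRL (light) and AAKO (dark), n = 6 mice per group, with bars for the standard error of the limma fit and open symbols where the adjusted p was 0.05 or above. Most points lie left of 0, and the AAKO point lies further left for nearly all Gst genes, while Sult1e1 at 4.90, Sult1d1 at 1.46 and Gstt3 at 1.05 stand on the right in AAKO.

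Within the single experiment that held fasted and CL316243 mice, the genotypes differed under both conditions. Among fasted mice 28 of 40 genes were called, 23 lower and 5 higher in AAKO, beside 49.3% of all genes, 28.1% lower and 21.3% higher. Their median difference was -0.35, against -0.04 for all genes. Groups did not overlap for 17 of the 40, beside 21.3% of all genes. Under CL316243, 17 genes were called, 14 lower and 3 higher in AAKO, beside 24.8% of all genes, 11.3% lower and 13.5% higher, with a median of -0.19 against 0.03. By class, 6 of 7 mu and both pi GSTs were lower in fasted AAKO and none of these 9 was called under CL316243, whereas 5 UGT2 genes were lower in fasted AAKO and 7 under CL316243. A direct test of the genotype difference between fasted and CL316243 mice called 13 members, 10 lower and 3 higher, beside 32.3% of all genes, 19.7% lower and 12.7% higher. Of the 9 mu and pi genes it called Gstm7, Gstp1 and Gstp2, and of the UGT2 genes it called Ugt2a3 alone. Without CTRL fasted replicate 2 it also called Gstm1 (-0.56, adjusted p = 0.0207) and Gstm3 (-0.49, adjusted p = 0.0367). The Gstm7 call was lost with the authors' value table (-0.50, adjusted p = 0.0616) and on leaving out single mice (adjusted p up to 0.0728, without CTRL CL316243 replicate 5).

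CL316243 mice differed from fed mice in fewer of these genes than fasted mice did. Against fed mice, 8 members were called in CTRL, none higher, beside 23.3% of all genes, 12.9% lower and 10.4% higher. In AAKO 20 were called, 19 lower and 1 higher (Sult1a1), beside 31.4% of all genes, 15.6% lower and 15.7% higher. The interaction of genotype with CL316243 called 5 members, 2 higher (Sult1a1 and Sult1d1) and 3 lower (Sult1c2, Ugt2b5 and Ugt2b37), beside 10.9% of all genes, 6.39% higher and 4.54% lower. The Sult1d1 call among these was lost under normexp correction and under 3 other scalings (adjusted p from 0.0511 to 0.0740). Leaving out single mice also ended the calls of Sult1d1 (adjusted p up to 0.0984, without AAKO fed replicate 4), Ugt2b5 (up to 0.0859) and Ugt2b37 (up to 0.0769, both without CTRL fed replicate 6). Fasted mice set directly against CL316243 mice differed in 27 members in CTRL, 22 lower and 5 higher in fasted, beside 36.8% of all genes, 17.6% lower and 19.2% higher. In AAKO 29 differed, 24 lower and 5 higher, beside 59.9% of all genes, 33.8% lower and 26.1% higher. Other scalings moved the share of higher members among the calls by over 10 percentage points in 4 comparisons: fasting in CTRL (4.00% to 16% with the authors' value table), CL316243 in CTRL (0% to 14.3% with quantile normalization), the interaction with CL316243 (40% to 16.7% with the authors' table) and the genotype difference of fasted against CL316243 mice (23.1% to 36.4% with that table).

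Among the glutathione transferases, the alpha class gene Gsta3, whose enzyme detoxifies aflatoxin epoxide in mice, gave the smallest adjusted p of the set. Its level, in log2 units above the array's 75th percentile, had a lowest, median and highest value of 8.59, 8.86 and 9.04 in CTRL fed and 8.78, 8.83 and 9.04 in AAKO fed. It was 7.36, 7.53 and 7.70 in CTRL fasted and 6.70, 7.0 and 7.19 in AAKO fasted, so that every fasted liver lay below every fed liver and every AAKO fasted liver below every CTRL fasted liver. Under CL316243 it was 8.15, 8.42 and 8.53 in CTRL and 8.0, 8.24 and 8.39 in AAKO, between the fed and fasted ranges. Gsta3 was 2.44-fold lower in fasted than fed CTRL (log2 change -1.29 ± 0.09, adjusted p = 6.82e-13 by limma, n = 6 per group). In AAKO it was 3.80-fold lower (-1.93 ± 0.09, adjusted p = 2.07e-17). The response was larger in AAKO by -0.64 ± 0.13 (adjusted p = 0.000195). Gsta4, which acts on the lipid peroxidation product 4-hydroxynonenal, fell by 1.11 in CTRL and by 1.29 in AAKO without a called genotype difference, and Gsta2 was not called in any comparison.

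The 7 mu class genes, general conjugators of electrophiles, all fell on fasting in AAKO mice, where 35.7% of all genes were called lower. Gstm7 showed the pattern: its levels were 0.40, 0.68 and 1.1 in CTRL fed, -0.31, 0.04 and 0.39 in CTRL fasted and -0.96, -0.69 and -0.25 in AAKO fasted. The fed and fasted ranges were separate in both genotypes, and the 2 fasted ranges overlapped between -0.31 and -0.25. Under CL316243, Gstm7 lay at 0.26, 0.64 and 0.99 in CTRL and 0.28, 0.65 and 0.89 in AAKO, with the ranges nearly coincident. Fasting changes of the 7 ran from -0.22 (Gstm2, not called) to -0.90 (Gstm6) in CTRL and from -0.48 (Gstm5) to -1.24 (Gstm7) in AAKO, where all 7 were called. Between fasted genotypes, Gstm1, Gstm2, Gstm3, Gstm4, Gstm6 and Gstm7 were lower in AAKO by 0.46 to 0.69, and Gstm5 differed by 0.02. The interaction with fasting was called for Gstm1 (-0.54 ± 0.19, adjusted p = 0.0302) and Gstm2 (-0.56 ± 0.20, adjusted p = 0.0307) only, so for the other 5 a larger response in AAKO was not called. Without CTRL fasted replicate 2 it was also called for Gstm3 (-0.50, adjusted p = 0.0312) and Gstm7 (-0.57, adjusted p = 0.0416). The Gstm1 call was lost with quantile normalization (-0.43, adjusted p = 0.0867) and on leaving out single mice (adjusted p up to 0.0629, without CTRL fasted replicate 1). The followed Gstm1 probe is placed by the files on chr5, away from the Gstm cluster, yet its second probe, on chr3, gave nearly the same changes, -0.42 in CTRL and -0.93 in AAKO against -0.36 and -0.90.

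Both pi class genes and the kappa class gene fell further in AAKO. Gstp1 lay at 6.79, 7.02 and 7.26 in CTRL fed, 6.01, 6.38 and 6.53 in CTRL fasted, and 5.39, 5.76 and 5.96 in AAKO fasted, 3 separate ranges in that order. It fell by 0.69 ± 0.10 in CTRL and by 1.39 ± 0.10 in AAKO, with an interaction of -0.70 ± 0.14 (adjusted p = 0.000256), and the genotype difference among fasted mice exceeded that under CL316243 (-0.67 ± 0.14, adjusted p = 0.000457). Gstp2, whose transcript the Gstp1 probe may also bind, gave smaller values, -0.16 ± 0.07 in CTRL and -0.46 ± 0.07 in AAKO. Gstk1, a transferase of mitochondria and peroxisomes, lay at 5.04, 5.22 and 5.51 in CTRL fasted and 4.33, 4.56 and 4.72 in AAKO fasted, without overlap. Its interaction with fasting was -0.67 ± 0.11 (adjusted p = 1.98e-05).

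The theta class did not move together. Gstt1 fell on fasting in both genotypes, by 0.77 ± 0.10 in CTRL and 1.1 ± 0.10 in AAKO. Gstt3 rose on fasting in AAKO: its levels were 3.34, 4.11 and 4.36 in CTRL fed, 3.57, 3.95 and 4.30 in AAKO fed, 3.89, 4.11 and 4.24 in CTRL fasted, and 4.48, 5.07 and 5.38 in AAKO fasted. Every AAKO fasted liver exceeded every liver of those 3 groups. CL316243 mice lay lower, at 2.81, 3.21 and 3.85 in CTRL and 2.58, 3.09 and 3.48 in AAKO. Gstt3 was 1.91-fold higher in fasted AAKO than in fasted CTRL (0.93 ± 0.19, adjusted p = 0.000109), and this genotype difference exceeded that under CL316243 by 1.1 ± 0.27 (adjusted p = 0.0018). Gstt2 was lower in AAKO both fasted (-0.62 ± 0.17) and after CL316243 (-0.64 ± 0.17), with no overlap between genotypes in either condition. Its second probe gave -0.21 and -1.26 for these differences, and the 2 probes disagreed on the response to condition. The second Gstt2 probe, at chr10:75295913-75295972, rose in CTRL by 2.12 with fasting and by 2.05 with CL316243 where the followed probe changed by 0.17 and -0.20. No direction is therefore given for Gstt2 between conditions.

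**Figure D2:**
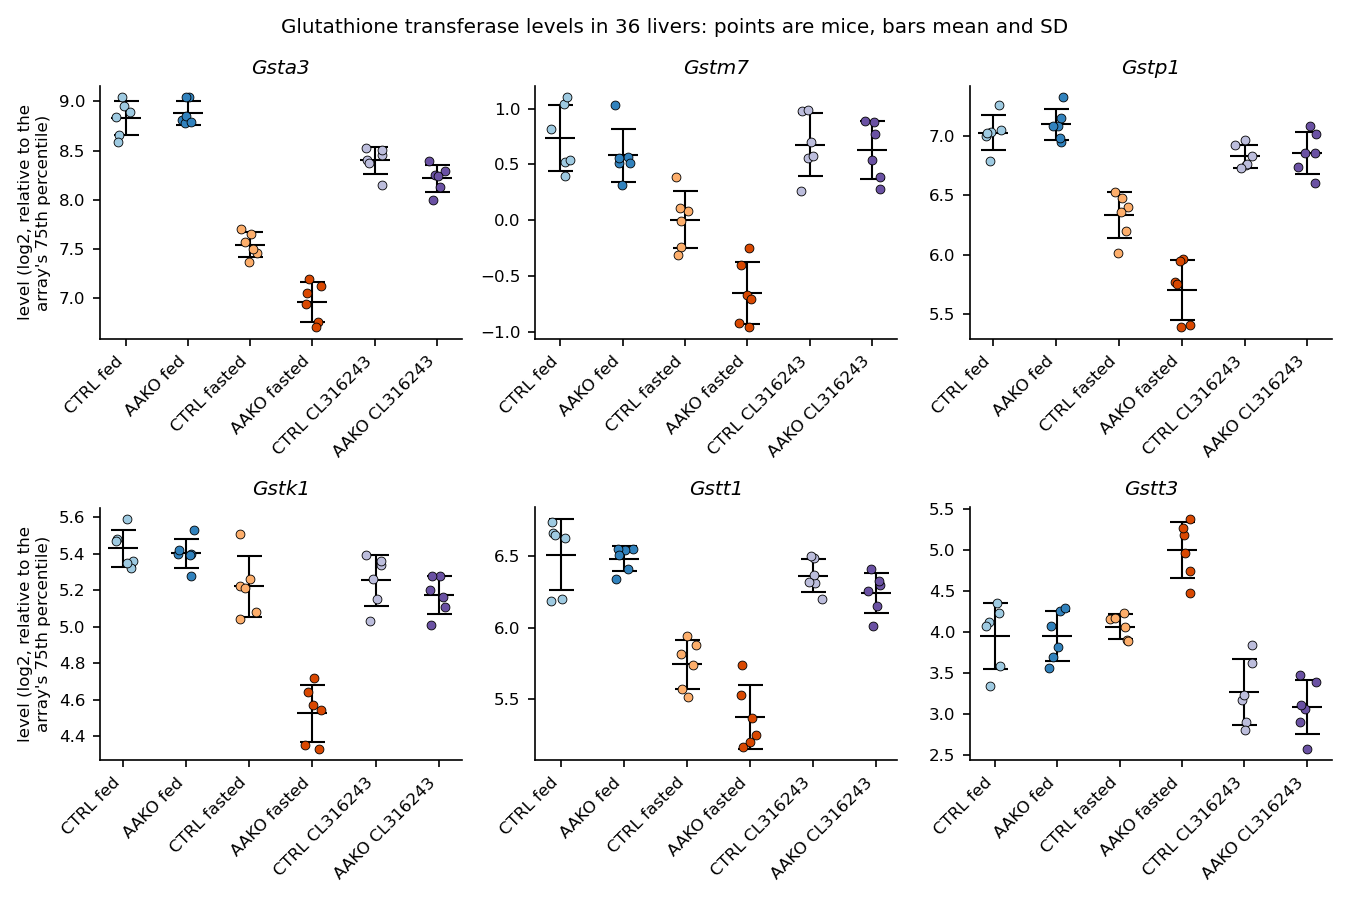
Levels of 6 Gst genes in 36 livers, in log2 relative to the 75th percentile of each array; points are mice, bars are mean and SD, n = 6 per group. Gsta3, Gstp1 and Gstk1 are lowest in AAKO fasted with no overlap with CTRL fasted, while Gstt3 is highest there.

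Among the glucuronosyltransferases, 8 of 9 UGT2 genes fell on fasting in each genotype, beside 22.4% of all genes in CTRL and 35.7% in AAKO. In AAKO against CTRL, 5 were lower and 2 higher when fasted, beside 28.1% and 21.3% of all genes. After CL316243, 7 were lower and none higher, beside 11.3% and 13.5% of all genes. The median fasting change was -0.49 in CTRL and -0.76 in AAKO, and Ugt2a3 was the exception in each. Ugt2b34 moved most in CTRL: it lay at 5.98, 6.10 and 6.17 in CTRL fed, 4.71, 4.94 and 5.14 in CTRL fasted and 4.37, 4.86 and 5.42 in AAKO fasted, so the fasted genotypes overlapped. It fell 2.24-fold in CTRL (-1.17 ± 0.12, adjusted p = 3.77e-09) and by 1.22 ± 0.12 in AAKO. Ugt2b34 was also lower in CL316243 than fed mice. The difference was 0.70 ± 0.12 in CTRL, with levels of 5.17, 5.43 and 5.54, and 1.13 ± 0.12 in AAKO, with levels of 4.60, 4.96 and 5.27. It shared this with other UGT2 genes: 3 of 9 were called lower in CTRL and 8 of 9 in AAKO. Over all genes, 12.9% and 15.6% were lower. Ugt2b38 lay at 7.21, 7.52 and 7.76 in CTRL fed, 6.82, 7.11 and 7.29 in CTRL fasted and 6.39, 6.66 and 6.84 in AAKO fasted, where the 2 fasted ranges met between 6.82 and 6.84. Ugt2a1 (-0.93 and -1.20), Ugt2b1 (-0.95 and -0.55), Ugt2b35 (-0.49 and -1.04), Ugt2b36 (-0.50 and -0.76), Ugt2b37 (-0.41 and -0.67) and Ugt2b5 (-0.40 and -0.69) also fell on fasting, in CTRL and AAKO respectively.

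After CL316243, 7 of 9 UGT2 genes were lower in AAKO than in CTRL, by 0.34 (Ugt2b38) to 0.56 (Ugt2a1), and none was higher. Over all genes, 11.3% were lower and 13.5% higher. Ugt2b5 lay at 6.25, 6.41 and 6.61 in CTRL CL316243 and at 5.8, 5.97 and 6.17 in AAKO CL316243, with no overlap, while both genotypes lay at about the same level when fed (medians 6.59 and 6.53). Its difference was -0.45 ± 0.09 (adjusted p = 0.000454), and that of Ugt2b37, whose probe resembles it, -0.49 ± 0.11. The interaction of genotype with CL316243 was called for these 2 alone among UGT2 genes, at -0.41 ± 0.13 (adjusted p = 0.0393) and -0.48 ± 0.15 (adjusted p = 0.0344). Ugt2a3 ran the other way in fasted mice. It lay at 4.87, 5.15 and 5.32 in CTRL fasted and 5.36, 5.66 and 5.79 in AAKO fasted, did not overlap, and differed by 0.52 ± 0.11 (adjusted p = 0.00019), with an interaction with fasting of 0.61 ± 0.16. Ugt2b1 was also higher in fasted AAKO than fasted CTRL (0.51 ± 0.17, adjusted p = 0.0137). Its interaction with fasting was not called.

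The UGT1A locus makes several enzymes from alternative first exons joined to shared downstream exons, so a probe there may bind several transcripts. The Ugt1a10 probe is annotated to Ugt1a10 and Ugt1a9, and the followed Ugt1a6a and Ugt1a6b probes to 4 genes each. The latter 2 averaged -2.18 and 7.48 over 36 arrays, so they are not read as the same sum of transcripts. No UGT1A gene was called on fasting in CTRL. Ugt1a6a, named for a phenol-conjugating enzyme, lay at -2.10, -1.79 and -1.42 in CTRL fed, -2.62, -2.36 and -1.80 in CTRL fasted and -3.46, -3.23 and -3.05 in AAKO fasted, where every mouse was below every CTRL fasted mouse. The AAKO minus CTRL difference was -0.97 ± 0.21 among fasted mice (adjusted p = 0.000306) and -0.77 ± 0.21 among CL316243 mice (adjusted p = 0.00739). The followed Ugt1a6b probe differed less, by -0.27 ± 0.08 and -0.26 ± 0.08. Further Ugt1a6b probes gave -0.34 and -0.32 at chr1:90114900-90114959, and -0.59 and -0.42 at chr1:90004249-90004308. Ugt1a10 was not called for genotype in either condition.

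The UGT3A genes, whose human counterparts use sugars other than glucuronic acid, had the smallest adjusted p of the UGT genes for genotype in fasted mice. Ugt3a1 lay at 5.22, 5.37 and 5.47 in CTRL fasted and 4.29, 4.57 and 4.76 in AAKO fasted, and at 5.04, 5.23 and 5.27 against 4.72, 4.82 and 4.96 under CL316243, with no overlap in either condition. It was 1.75-fold lower in fasted AAKO (-0.81 ± 0.08, adjusted p = 3.87e-10), and the difference exceeded that under CL316243 by -0.45 ± 0.11 (adjusted p = 0.00154). Ugt3a2, its neighbour on chr15, gave -0.65 ± 0.07 and -0.22 ± 0.07. Neither was called on fasting in CTRL (0.08 and 0.11), and both fell in AAKO, by 0.55 ± 0.08 and 0.35 ± 0.07. One spot of Ugt3a1 and one of Ugt2b35 carried an outlier mark on an AAKO fed array and were left out, so n = 5 there.

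**Figure D3:**
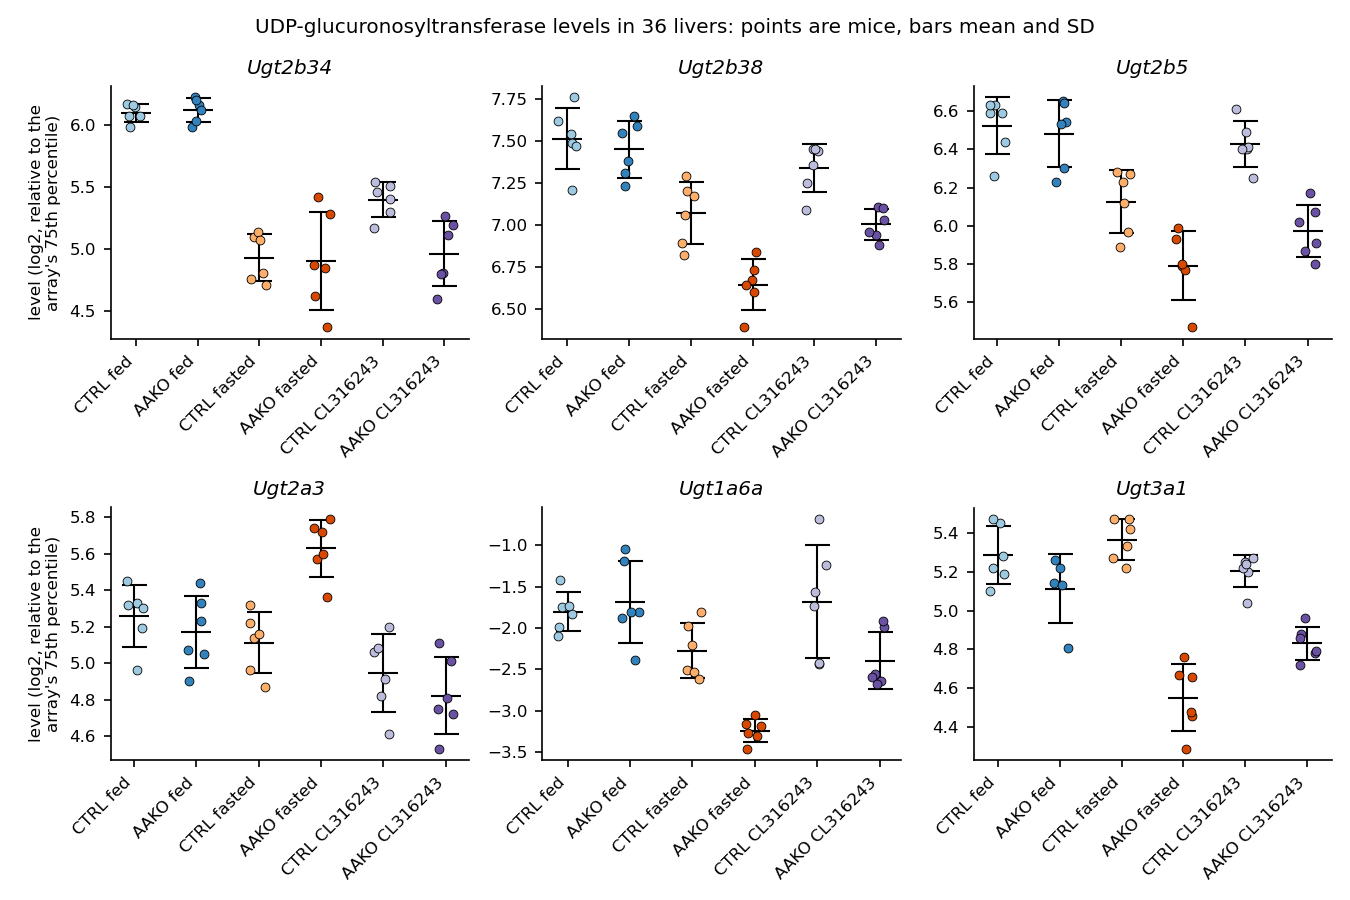
Levels of 6 Ugt genes in 36 livers, in log2 relative to the 75th percentile of each array; points are mice, bars are mean and SD, n = 6 per group except 5 for Ugt3a1 in AAKO fed. Ugt2b34 is low in all fasted and CL316243 mice, Ugt2a3 is highest in AAKO fasted, and Ugt1a6a and Ugt3a1 are lowest there.

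The largest difference of the set was in Sult1e1, which sulfates and inactivates estrogens. Its levels were -1.82, -1.05 and 0.10 in CTRL fed, -2.66, -1.28 and 0.38 in AAKO fed, -0.94, -0.38 and 3.08 in CTRL fasted, and 2.44, 3.66 and 4.38 in AAKO fasted. CTRL CL316243 mice lay lowest at -4.26, -3.64 and -1.80, and AAKO CL316243 mice at -2.74, -1.43 and -0.19. All 6 AAKO fasted livers exceeded all fed and CL316243 livers, and 5 of 6 CTRL fasted livers lay below all AAKO fasted livers, the exception being replicate 2 at 3.08. Sult1e1 was 29.8-fold higher in fasted than fed AAKO (4.90 ± 0.59, adjusted p = 1.08e-08) and 9.95-fold higher in fasted AAKO than fasted CTRL (3.32 ± 0.59, adjusted p = 1.91e-05). In CTRL the fasting difference was 1.31 ± 0.59 (adjusted p = 0.0719), not called, and 0.77 (adjusted p = 0.272) without replicate 2. The interaction of genotype with fasting was 3.59 ± 0.83 (adjusted p = 0.00101).

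Under CL316243 Sult1e1 fell 4.69-fold in CTRL (-2.23 ± 0.59, adjusted p = 0.00553) and differed by -0.01 in AAKO. With normexp correction the change in CTRL was -1.24 (adjusted p = 0.0433). AAKO was 3.84-fold higher than CTRL after the agonist (1.94 ± 0.59, adjusted p = 0.0144). This call was lost with normexp background correction (1.12, adjusted p = 0.0718), and the interaction of genotype with CL316243 missed the threshold (2.22 ± 0.83, adjusted p = 0.0849). Whether the genotype difference was larger fasted than after CL316243 was decided by 1 mouse. The difference of differences was 1.37 ± 0.83 (adjusted p = 0.221) with all arrays and 1.94 (adjusted p = 0.0422) without CTRL fasted replicate 2. That array had the highest neutrophil marker sum of its group, and a link with Sult1e1 was not tested.

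Sult1d1, a phenol sulfotransferase that also acts on catecholamine metabolites, had the same order of group medians as Sult1e1. It lay at 3.93, 4.16 and 4.39 in CTRL fed, 3.54, 4.14 and 4.29 in AAKO fed, 3.74, 4.40 and 5.55 in CTRL fasted, and 5.11, 5.45 and 5.78 in AAKO fasted. Replicate 2 was again the highest CTRL fasted mouse. CTRL CL316243 mice lay at 2.72, 2.91 and 3.10, below every other group, and AAKO CL316243 mice at 3.18, 3.50 and 4.59. Sult1d1 was 2.11-fold higher in fasted AAKO than fasted CTRL (1.07 ± 0.22, adjusted p = 0.000148) and higher by 0.82 ± 0.22 after CL316243 (adjusted p = 0.00612). In CTRL, it was lower in CL316243 than fed mice by 1.23 ± 0.22 (adjusted p = 0.000123). Its second probe, printed above, gave 1.08, 0.87 and -1.26 for these differences.

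Sult1a1, the major phenol sulfotransferase, and Sult1c2 separated the genotypes after CL316243 and not after fasting. Sult1a1 lay at 5.53, 5.71 and 6.35 in CTRL CL316243 and at 6.75, 6.95 and 7.36 in AAKO CL316243, while the fasted groups overlapped at 6.19, 6.42 and 7.02 against 6.42, 6.71 and 7.02. It was 2.27-fold higher in AAKO after the agonist (1.18 ± 0.14, adjusted p = 2.20e-07), and its genotype difference was smaller in fasted mice by 0.98 (-0.98 ± 0.20, adjusted p = 0.00028). Sult1c2 went the opposite way, from -0.70, -0.01 and 0.41 in CTRL CL316243 to -2.17, -1.32 and -1.13 in AAKO CL316243, a 2.51-fold lower level without overlap (-1.33 ± 0.24, adjusted p = 7.61e-05). Fasted mice of both genotypes lay near that low range, at -2.30, -1.54 and -1.18 and at -2.18, -1.67 and -1.09. The tested difference of Sult1c2 between conditions was 1.40 ± 0.33 (adjusted p = 0.00149). Sult1b1, which sulfates thyroid hormones, fell on fasting by 0.54 ± 0.19 in CTRL and 0.65 ± 0.19 in AAKO, and Sult1c1 was called only for CL316243 in CTRL (-0.48 ± 0.15).

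Of the hydroxysteroid sulfotransferases, which act on steroids and bile acids, Sult2a7 and Sult2a8 were both lowest in fasted AAKO. Sult2a7 lay at -2.37, -1.67 and -0.70 in CTRL fed, -2.59, -1.35 and 0.67 in CTRL fasted and -4.01, -3.63 and -2.70 in AAKO fasted. Every AAKO fasted liver was below every fed and CTRL fasted liver, and the nearest CTRL fasted mouse was replicate 2 at -2.59. Sult2a7 was 5.39-fold lower in fasted AAKO than fasted CTRL (-2.43 ± 0.42, adjusted p = 1.35e-05), with an interaction with fasting of -2.28 ± 0.59 (adjusted p = 0.00306). With normexp correction these were -1.47 and -1.42, and in wash batch 2 alone the interaction was -1.26 and its call was lost (adjusted p = 0.218). Sult2a8 lay at 6.81, 6.96 and 7.09 in CTRL fed, 5.84, 6.32 and 6.47 in CTRL fasted and 4.63, 5.26 and 5.73 in AAKO fasted, 3 ranges without overlap. It fell on fasting by 0.75 ± 0.13 in CTRL and 1.76 ± 0.13 in AAKO, a 3.38-fold change (adjusted p = 4.38e-13), and the interaction was -1.01 ± 0.19 (adjusted p = 7.85e-05). Sult4a1, a family member best known in brain, fell on fasting by 0.76 ± 0.15 and 1.01 ± 0.15, and Sult5a1 was not called in any comparison.

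**Figure D4:**
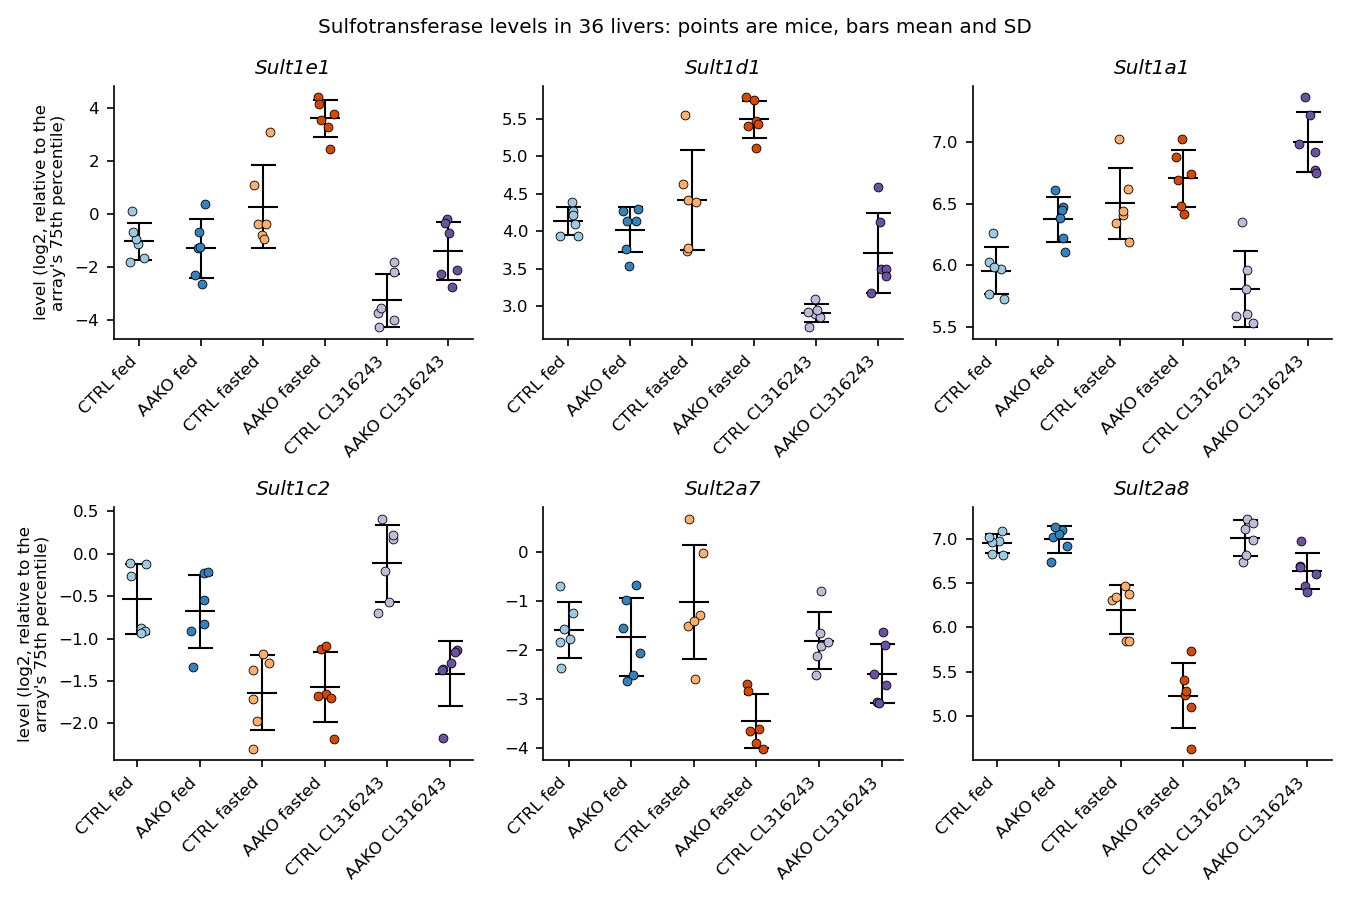
Levels of 6 Sult genes in 36 livers, in log2 relative to the 75th percentile of each array; points are mice, bars are mean and SD, n = 6 per group. Sult1e1 and Sult1d1 are highest in AAKO fasted, Sult2a7 and Sult2a8 lowest there, and Sult1a1 and Sult1c2 separate the genotypes after CL316243.

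By position, 12 of the tested genes lie together on chr5 between 87318849 and 88005246 of mm9: the 9 UGT2 genes, then Sult1b1, Sult1d1 and Sult1e1. On fasting in AAKO, 9 of these fell and 3 rose, the latter being Ugt2a3, Sult1d1 and Sult1e1. The Sult1d1 and Sult1e1 probes lie at the far end, 666 and 686 kb from the Ugt2b34 probe, and Sult1b1, at 625 kb, fell. Direction therefore changed between neighbours within the stretch. Of 3 tested Gstt genes together on chr10, 1 was called higher and 1 lower. In the Gstm cluster of chr3, by contrast, all 6 members placed there fell, and both tested members of the Sult2a cluster on chr7 fell. Of 3 tested Ugt1a genes on chr1, 2 were called lower and none higher. Over all genes, this comparison called 35.7% lower and 27.8% higher.

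**Figure D5:**
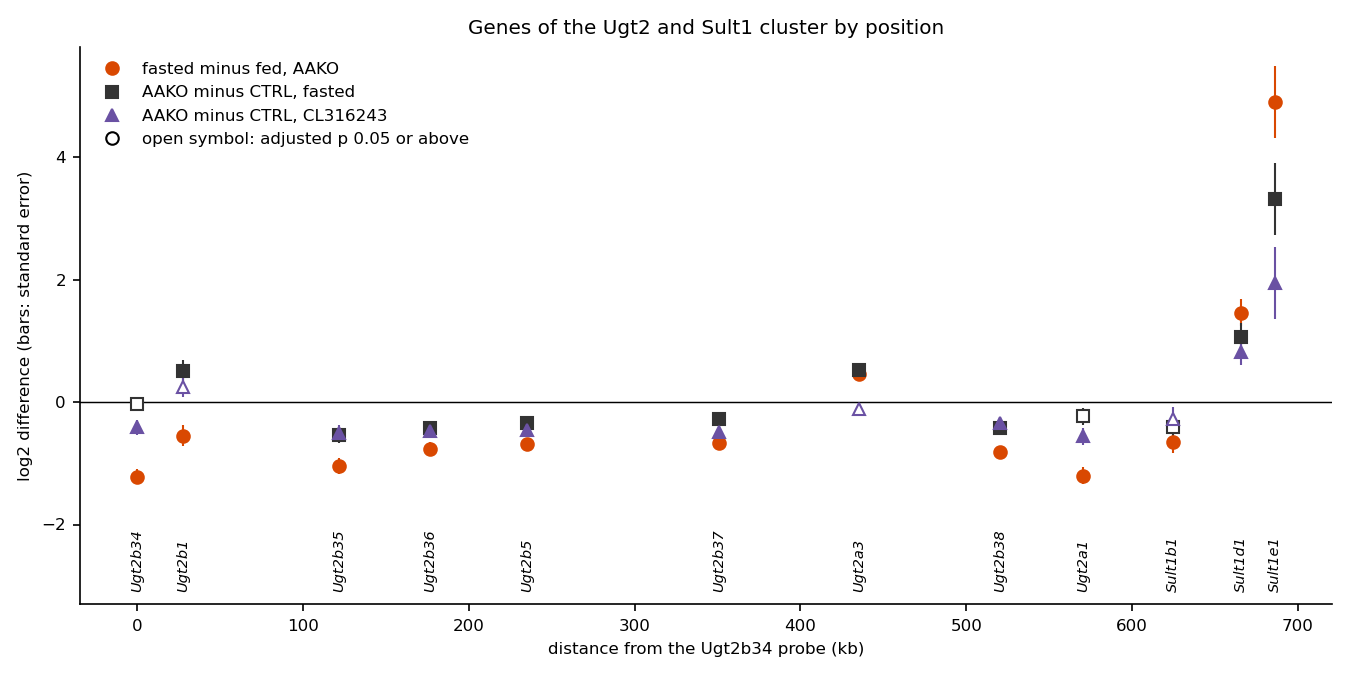
Log2 differences with standard errors for the 12 genes of the chr5 cluster, by distance in kb from the Ugt2b34 probe: fasted minus fed in AAKO (circles), AAKO minus CTRL when fasted (squares) and after CL316243 (triangles), open where the adjusted p was 0.05 or above. The UGT2 genes lie near or below 0 apart from Ugt2a3 and the fasted Ugt2b1 difference, and Sult1d1 and Sult1e1 rise at the right end.

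Different probes of a gene agreed in direction for the main results except for Gstt2, but not always in size. A further Gsta3 probe, at chr1:21246334-21246393 of mm9, fell on fasting by 2.63 in CTRL and by 5.27 in AAKO, where the followed probe fell by 1.29 and by 1.93. Its genotype difference in fasted mice was -2.85 against -0.58. The transcripts each probe binds were not examined further.

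The genes that supply the 3 donors moved with condition as well, described by counts over lists of known function, to be read against the shares of all genes given above (28.1% lower and 21.3% higher in fasted AAKO, 11.3% and 13.5% after CL316243). Of the 5 tested genes of UDP-glucuronate supply and glucuronide cleavage, 3 were lower and 1 higher in fasted AAKO than fasted CTRL. The higher one was Gusb, whose enzyme cleaves glucuronides, with means of 2.35 in CTRL fasted and 2.76 in AAKO fasted. None of the 5 was called after CL316243. Ugdh, which makes UDP-glucuronate, differed by -0.59 ± 0.12 (adjusted p = 0.000122), and the nucleotide sugar transporter Slc35d2 by -1.73 ± 0.17 (adjusted p = 1.05e-09). Of the 11 genes of PAPS supply and sulfate removal, 3 were higher and 4 lower in fasted AAKO. Papss1, a PAPS synthase, fell on fasting by 1.68 ± 0.15 in CTRL and 2.24 ± 0.15 in AAKO, and was higher in AAKO after CL316243 by 0.61 ± 0.15. Of 10 tested genes of glutathione supply and use, 7 were lower and 2 higher in fasted AAKO, and 7 lower and 1 higher after CL316243. Gclc, the catalytic subunit of the rate-limiting step of glutathione synthesis, was lower in AAKO after CL316243 by 1.68 ± 0.14 (adjusted p = 4.96e-10) and differed by -0.25 ± 0.14 when fasted (adjusted p = 0.149). Chac1, which degrades glutathione, was higher by 3.81 ± 0.50 fasted (adjusted p = 1.55e-07) and by 1.41 ± 0.50 after CL316243.

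Other detoxifying genes were counted in the same comparison of fasted AAKO and CTRL mice, in which 28.1% of all genes were lower and 21.3% higher. Of 7 tested glutathione transferases outside the named classes 4 were lower and none higher than in fasted CTRL, among them Mgst1 (-0.62 ± 0.07). Of 9 other conjugating enzymes 7 were lower and 1 higher, from the glycine transferase Glyat (-1.14 ± 0.07) and epoxide hydrolase Ephx1 (-1.26 ± 0.11) to the nicotinamide methyltransferase Nnmt (0.98 ± 0.18). Of 10 transporters of conjugates 5 were lower and 3 higher. The basolateral efflux pumps Abcc3 and Abcc4 went opposite ways, at -1.99 ± 0.21 and 1.53 ± 0.23. Of 16 regulators, 7 were higher and 4 lower. The CAR gene Nr1i3 differed by -1.43 ± 0.15, Nfe2l2 by -2.12 ± 0.25, and the estrogen receptor Esr1 by 2.37 ± 0.26. Means in CTRL fasted and AAKO fasted were 3.08 and 2.8 for the PXR gene Nr1i2, and 2.37 and 2.19 for Ahr. For Cux2 they were -2.65 and 0.91. After CL316243, 5 regulators were higher and 5 lower in AAKO, beside 13.5% and 11.3% of all genes. Nr1i3 was lower in AAKO by 1.66 ± 0.15 (adjusted p = 3.04e-09) and Nfe2l2 by 0.86 ± 0.25. Means in CTRL and AAKO were 2.81 and 2.16 for Nr1i2, and 2.89 and 3.53 for Ahr. The link between these regulators and the members was not tested.

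Promoters from RefSeq on GRCm38.p6 were searched over the 250 bases before the gene start; 41 of the 49 members had one, with 50 windows in all, beside 32851 windows of all genes. The antioxidant response core TGACNNNGC, read on both strands as were all 10 motifs, was found in 6% of member windows (Gsta3, Gstm5 and Gstm7) and 10.2% of all windows. The HNF1 core GTTAATNAT was found in 12% and 0.737%, in Sult1d1, Ugt1a10 and Sult2a3 to Sult2a6. The xenobiotic response core GCGTG was found in 16% and 28.2%, the C/EBP core TTGCNNAA in 16% and 9.56%, the TATA core TATAAA in 20% and 12.4%, the STAT5 site TTCNNNGAA in 6% and 7.02% and the FoxO core TGTTTAC in 6% and 3.17%. The HNF4A core CAAAGTCCA, the cyclic AMP element TGACGTCA and the PPAR core GGTCANAGG were in no member window and in 0.384%, 1.55% and 1.43% of all. Several of these windows belong to near-identical copies, so they are not separate observations. The windows of Sult1e1 and Sult1d1, which rose on fasting in AAKO, and of Gsta3, which fell, are shown 5′ to 3′, with matches in capitals: the HNF1 core and the reverse of the xenobiotic core in Sult1d1, the reverse of the C/EBP core and the antioxidant core in Gsta3, and no match in Sult1e1.
Sult1e1, chr5:87591612-87591861, minus strand: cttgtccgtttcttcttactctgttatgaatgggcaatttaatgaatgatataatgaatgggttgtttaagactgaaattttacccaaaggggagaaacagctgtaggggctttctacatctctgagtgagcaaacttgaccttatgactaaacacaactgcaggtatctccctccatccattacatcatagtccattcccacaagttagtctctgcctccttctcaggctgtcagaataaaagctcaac
Sult1d1, chr5:87569007-87569256, minus strand: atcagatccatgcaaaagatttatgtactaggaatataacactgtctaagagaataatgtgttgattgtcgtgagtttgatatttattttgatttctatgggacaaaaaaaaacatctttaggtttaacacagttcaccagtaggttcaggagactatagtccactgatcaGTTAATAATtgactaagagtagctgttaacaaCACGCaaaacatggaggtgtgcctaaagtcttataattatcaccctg
Gsta3, chr1:21240335-21240584, plus strand: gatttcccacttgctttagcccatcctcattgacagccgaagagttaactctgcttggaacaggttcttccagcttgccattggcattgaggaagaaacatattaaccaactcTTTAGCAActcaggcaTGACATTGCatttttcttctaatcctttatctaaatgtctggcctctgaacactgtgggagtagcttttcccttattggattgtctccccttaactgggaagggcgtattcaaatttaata
A match is a stretch of letters and says nothing here about binding.

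Repeating the fit within each wash batch gave the same direction for every called member in both batches. Calls of the genotype difference in fasted mice numbered 24 in batch 1 and 17 in batch 2 against 28 with all arrays, and those after CL316243 numbered 11 and 2 against 17. Fasting in AAKO gave 34 and 30 calls against 35. Counts of called members under alternatives, here and below, are given without the share of all genes called. They show only how the calls depended on the arrays and settings used. In batch 2 alone, the genotype difference of fasted mice missed the threshold for Sult1d1 (0.64, adjusted p = 0.102) and Sult2a7 (-1.26, adjusted p = 0.0507), where batch 1 gave 1.51 and -3.60. Without CTRL fasted replicate 2 the genotype difference in fasted mice again counted 28, 23 lower and 5 higher, and fasting in CTRL 21 against 25.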

How the data were processed

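RNA of 36 mouse livers was measured on 36 arrays. Per the file headers, the scanner's intensity values came from Agilent Feature Extraction 10.10.1.1, with a fitted background subtracted and no scaling between arrays recorded. The authors also deposited a log2 value table of 36898 probes. The submitters' processing notes name limma, while the table's filter and normalization are not given in the sources used here and the centring is unknown. All 36 of its columns correlated best with their own arrays (r 0.98635 to 0.98969), which sets scale and direction, and the column medians, equal within a group, ran from 6.88 to 7.01. It served as an alternative.

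Signals (processed intensity) were taken to log2 and centred on each array's 75th percentile over non-control spots. Outlier-marked spots (2701, 0.127%) were left out, no spot was saturated, and spots of a probe were averaged. Each gene name kept its brightest probe, and 24101 genes passed the filter (well above background on at least 5 of 6 arrays of a group). One fit in limma 3.58.1 under R 4.3.3, with version 1.17.8 of data.table, held the 6 groups plus an additive wash batch term, with Benjamini-Hochberg adjustment over all tested genes of a comparison. Genes with an adjusted p under 0.05 are called; tests were two-sided, errors are standard errors, and the number of arrays limits precision. The fit was tested on simulated data.

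The members and gene lists were chosen with earlier results of these data known. Every member was accounted for. The named differences are, per comparison, the called members past 1 on the log2 scale, up to 12 each way by size. Not all of these are printed, and some are given without ranges over arrays. Members of known role are described beside them. Alternatives were normexp correction (offset 50), quantile and median scaling, the authors' table, other filters and probe rules, slide, batch and replicate blocks, and leaving out each array. Same-numbered mice were not paired.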

Additional observations from a re-analysis of the deposited data

Results flagged for a closer look

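In 13 of 240 combinations of a tested gene and a group, 1 mouse lay apart from the rest of its group by Dixon's criterion; chance alone marks about 1 in 20 such combinations. On the log2 scale, these were Gsta2 at 2.53 and Sult1b1 at 0.62, both in AAKO fasted replicate 3, Gstm1 at 6.62 and Gstm3 at 7.52 in CTRL fed replicate 6, Gstm6 at 5.33 in CTRL CL316243 replicate 4, Gstm7 at 1.03 in AAKO fed replicate 3 and Sult4a1 at -2.0 in AAKO fed replicate 6. The others were Sult1c2 at -2.17 and Ugt1a6b at 6.90 in AAKO CL316243 replicate 6, Ugt1a10 at -1.03 in CTRL fasted replicate 5, Ugt2b1 at 3.88 in CTRL CL316243 replicate 5, and Ugt3a1 at 4.81 in AAKO fed replicate 4 and 5.04 in CTRL CL316243 replicate 4. CTRL fasted replicate 2 was not among them.

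A response that differed between genotypes or conditions by a called interaction past 1 on the log2 scale was seen for 7 genes. The fasting response of AAKO minus that of CTRL was 3.59 for Sult1e1, 1.19 for Sult1d1, -2.28 for Sult2a7, -1.01 for Sult2a8 and -1.09 for Ugt1a6a, and the corresponding CL316243 value was -1.18 for Sult1c2. The genotype difference of fasted minus CL316243 mice was 1.1 for Gstt3, 1.40 for Sult1c2 and -1.74 for Sult2a7.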

How the results depend on the processing

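For the 50 named differences of 19 genes, 1438 of 1458 values under alternatives kept direction and call, 20 kept direction and lost the call, and none reversed. Within wash batches, 18 of the 20 were lost, with fewer arrays. Sult1e1 after CL316243 lost the call with normexp correction, and the Sult2a7 genotype difference between fasted and CL316243 mice did with the authors' table (-1.19). The counts of called members moved most within batches: in batch 1 to 11 (genotype after CL316243), 5 (CL316243 in CTRL), 11 (fasted against CL316243 in CTRL), 0 (genotype by CL316243) and 8 (genotype difference of fasted against CL316243), and in batch 2 to 17 (genotype, fasted), 2 (genotype after CL316243), 13 (fasting in CTRL), 2 and 2 (CL316243 in CTRL and AAKO), 16 (fasted against CL316243 in CTRL), 5 (genotype by fasting), 0 (genotype by CL316243) and 4 (genotype difference of fasted against CL316243). The genotype by CL316243 count of 5 became 2 without a filter, 8 with slide as a fixed factor, 8 with only the groups compared, and 3 with the replicate number as a block; the replicate block moved no other count beyond 1.5 times, and with it Ugt2b5 and Ugt2b37 lost that call (adjusted p 0.0534 and 0.0526). The cause was not tested. Replicate numbers did not pair the mice: 16 of 90 same-numbered pairs had a correlation of deviations over 0.1 (median 0.00229).

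Leaving out each array in turn gave 26 to 29 calls for genotype in fasted mice, 16 to 17 after CL316243, 0 in fed mice, 21 to 26 for fasting in CTRL, 33 to 37 in AAKO, 5 to 9 and 16 to 21 for CL316243 in CTRL and AAKO, 21 to 28 and 26 to 29 for fasted against CL316243, 14 to 22 for genotype by fasting, 2 to 7 for genotype by CL316243 and 11 to 16 for the genotype difference of fasted against CL316243. CL316243 in CTRL was 5 without CTRL fed replicate 1. Genotype by CL316243 was 2 without CTRL fed replicate 6, AAKO fed replicate 2, or CTRL CL316243 replicate 3 or 6, and 3 without CTRL fed replicate 5, AAKO fed replicate 4 or 5, CTRL CL316243 replicate 5 or AAKO CL316243 replicate 1.

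The authors' table shifted the median of all genes by over 0.1 in fasted against CL316243 mice of AAKO (0.05 against -0.08) and in the genotype difference of fasted against CL316243 (0.02 against -0.09). With it the share of higher calls over all genes was 42.3% against 54.4% for genotype after CL316243, 58.1% against 43.5% for fasted against CL316243 in AAKO (31.4% with normexp), 44.2% against 58.5% for genotype by CL316243, 54.9% against 39.1% for the genotype difference of fasted against CL316243 and 66.7% against 52.6% in fed mice. With the mean of all probes of a gene, Gsta3 fell by 3.09 on fasting in AAKO. Dim members (Sult2a1 to Sult2a6, Sult2b1, Sult3a1) are limited by background.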
